A study of Homo sapiens with 6 samples.

Results

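The 10 complement genes described here were *C1QA*, *C1QB*, *C1QC*, *C3*, *C2*, *CFP*, *C3AR1*, *C5AR1*, *SERPING1* and *CD55*, found by symbol among the 20348 genes of the deposited table. They cover recognition, cleavage, amplification, anaphylatoxin sensing and inhibition, and they were chosen with their levels in control and WNK463-treated cells already known. Their differences between these groups are therefore given as a description, without a test. The cells were MV4-11, an established human acute myeloid leukemia (AML) line, and all 6 libraries come from this 1 line. The 3 control libraries (Ctrl) are labelled as untreated, and what the blank control contained is not given in the sources used here, while the 3 WNK463 libraries came from cells given 1 μM of WNK463, a compound that inhibits WNK kinases, for 48 h. Whether the numbered libraries of a group were separate cultures is not given in the labels, so the SDs and p-values measure the spread between these samples, which may be technical.

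Complement is a set of plasma and membrane proteins that marks targets for uptake by phagocytes and can form a lytic pore. C1q, built from 3 kinds of chain, starts the classical pathway, C3 is the component on which all pathways converge, and the fragments C3a and C5a act on receptors of myeloid cells. Much plasma complement is made by the liver, while monocytes and macrophages are a main source of C1q, properdin and local C3. Membrane regulators such as CD55 protect the cells that carry them.

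The libraries held between 14915745 and 17411780 counts, so that 3 counts correspond to 0.174 to 0.206 CPM (counts per 1000000 counts of a library after TMM normalisation). Levels of 1 gene were compared between groups in CPM, and levels of different genes only in TPM, which is corrected for transcript length. *FLT3*, *CD33*, *HOXA9* and *MEIS1*, which are typical of this kind of AML, were well expressed in both groups, with mean CPM in Ctrl of 369, 84.8, 53.5 and 89.5, whereas *CD34* and *CD14* had at most 1 and 10 counts in any library. As RNA from whole cultures was measured, fewer cells of a type and less RNA per cell cannot be told apart.

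Of the 10 genes, 8 passed edgeR's filter on low counts, and *C5AR1* and *SERPING1* did not. In 7 of the 10, all 3 WNK463 values in CPM lay above all 3 Ctrl values, where 37.1% of the 11973 genes tested did so, and 3 overlapped. At an adjusted p below 0.05 from edgeR, 35.5% of all tested genes were higher and 35.3% were lower with WNK463, and of the 8 complement genes 7 were on the higher side and 0 on the lower. With the further requirement of a log2 fold change of 1 or more in size, 9.62% of all tested genes were called higher and 5.55% lower, and 6 of the 8 complement genes were on the higher side. The median log2 fold change of the 8 genes was 3.03, or 2.65 with *C1QB* at its bound, beside 0.016 for all tested genes. *C1QA*, *C1QB*, *C1QC*, *C2* and *C3AR1* passed the filter only through their WNK463 counts. Because of this, and because the genes were selected on these values, nothing is read from these counts or from this median.

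**Figure D1:**
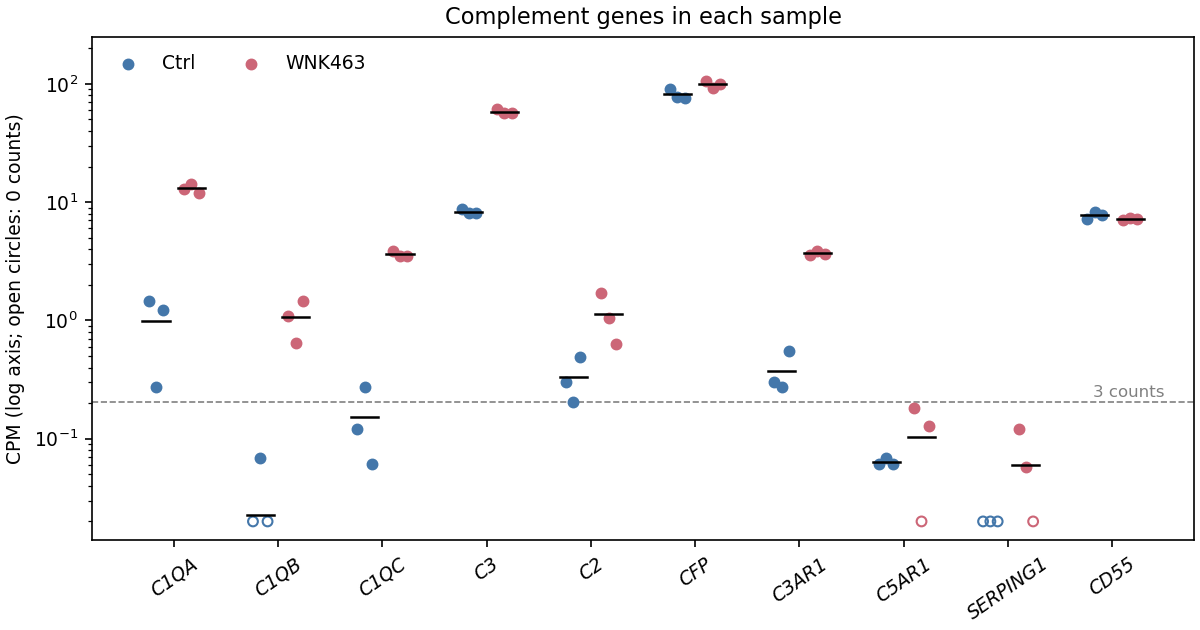
Level of each of the 10 complement genes in CPM on a log axis, with 1 point per library for Ctrl (blue) and WNK463 (red), a black line at the group mean, open circles for 0 counts and a dashed line at the highest level that 3 counts represent. *C1QA*, *C1QC*, *C3* and *C3AR1* separate widely between groups, *CFP* separates narrowly, *CD55* overlaps, and *C5AR1* and *SERPING1* stay at or under 3 counts.

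The 3 C1q chain genes lie side by side on chromosome 1 of GRCh38, all on the plus strand. *C1QA* (ENSG00000173372) spans 22636506 to 22639608, *C1QC* (ENSG00000159189) spans 22643630 to 22648110, and *C1QB* (ENSG00000173369) spans 22652762 to 22661538. The gaps between neighbours are 4022 bp and 4652 bp. The genes on either side, *EPHA8* and *EPHB2*, were below the count filter.

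*C1QA*, which encodes the A chain, had 24, 4 and 20 counts in Ctrl 1 to 3 and 216, 245 and 188 in WNK463 1 to 3. In CPM these were 1.46, 0.274 and 1.22 in Ctrl and 13.04, 14.2 and 11.995 with WNK463. Every WNK463 library lay well above every Ctrl library, and Ctrl 2 was far below the other 2 Ctrl libraries. The mean was 0.985 ± 0.627 CPM in Ctrl and 13.1 ± 1.12 CPM with WNK463 (SD, n = 3 each), for a log2 fold change of 3.69 (standard error 0.25). The coefficient of variation in Ctrl was 63.7%, against 25.0% from counting error alone, so the spread of *C1QA* between the Ctrl libraries was larger than counting error. Without Ctrl 2 the log2 fold change was 3.27.

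*C1QC*, which encodes the C chain, had 2, 4 and 1 counts in Ctrl and 64, 60 and 55 counts with WNK463. The mean was 0.152 ± 0.110 CPM in Ctrl and 3.62 ± 0.211 CPM with WNK463 (SD, n = 3 each). The groups did not overlap, and the log2 fold change of 4.54 (standard error 0.41) rests on the few Ctrl counts. It was 5.19 without Ctrl 2 and 4.16 without Ctrl 3.

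*C1QB*, which encodes the B chain, had 0, 1 and 0 counts in Ctrl and 18, 11 and 23 counts with WNK463. As all Ctrl libraries had 3 counts or fewer, only a bound is given. With 3 counts in each Ctrl library, the WNK463 mean of 1.06 ± 0.415 CPM (SD, n = 3) was at least 5.59-fold higher.

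Summed over the 3 chains, the counts were 26, 9 and 21 in Ctrl and 298, 316 and 266 with WNK463. The summed level was 1.16 ± 0.494 CPM in Ctrl and 17.8 ± 0.718 CPM with WNK463 (SD, n = 3 each), a ratio of 15.3. On the TPM scale it was 2.16 ± 0.935 and 36.8 ± 2.60. The chains were not equally abundant. With WNK463, *C1QA* made up 74.4%, 80.4% and 72.7% of the summed TPM in the 3 libraries, *C1QC* 19.0%, 16.5% and 18.9%, and *C1QB* 6.55%, 3.17% and 8.39%, so that the order A, C, B was the same in each library. In Ctrl the share of *C1QA* was 92.7%, 47.4% and 95.9%, from few counts.

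**Figure D2:**
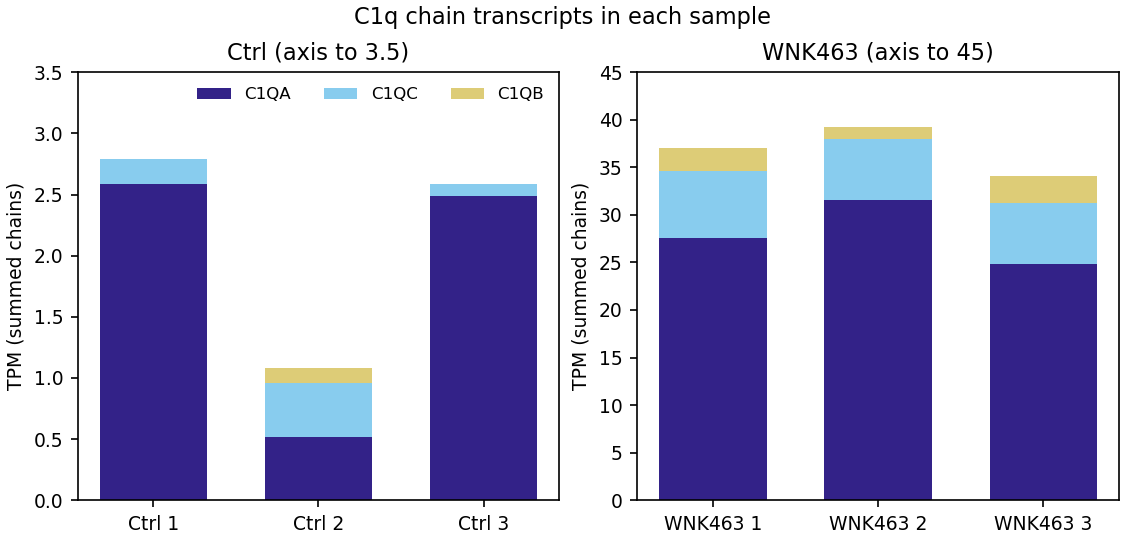
Stacked TPM of *C1QA* (dark blue), *C1QC* (light blue) and *C1QB* (yellow) in each library, with Ctrl on the left (axis to 3.5 TPM) and WNK463 on the right (axis to 45 TPM). The axes differ, since the summed level was at most 2.79 TPM in Ctrl and at least 34.1 TPM with WNK463, and *C1QA* forms most of each WNK463 bar.

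*C3* (ENSG00000125730, chromosome 19 from 6677704 to 6730562, minus strand), the central component cleaved by both convertases, had 144, 117 and 132 counts in Ctrl and 1009, 970 and 894 counts with WNK463. The levels were 8.76, 8.02 and 8.05 CPM in Ctrl and 60.9, 56.4 and 57.0 CPM with WNK463. The libraries of each group were close together and the groups were far apart. The mean was 8.28 ± 0.422 CPM in Ctrl and 58.1 ± 2.45 CPM with WNK463 (SD, n = 3 each), and the log2 fold change was 2.81 (standard error 0.08), or 7.01-fold.

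The TPM values of *C3* were less even. They were 3.765, 11.176 and 3.93 in Ctrl and 27.698, 31.573 and 26.259 with WNK463, so that Ctrl 2 had the fewest counts but the highest TPM of its group. The counts per TPM, relative to the median gene of each library, were 1.60, 0.507 and 1.44 in Ctrl and 1.72, 1.41 and 1.70 with WNK463. This ratio follows the transcript length that the authors' quantification assigned to the gene, and for *C3* the annotation holds 18 transcripts from 280 to 5263 bases, 5 of them protein-coding. Of 11150 genes with at least 10 counts in every library, 81 (0.726%) had a range of 2-fold or more across the Ctrl libraries, as *C3* did. The ratio of mean TPM gave a log2 difference of 2.18 for *C3*, below the value from counts.

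**Figure D3:**
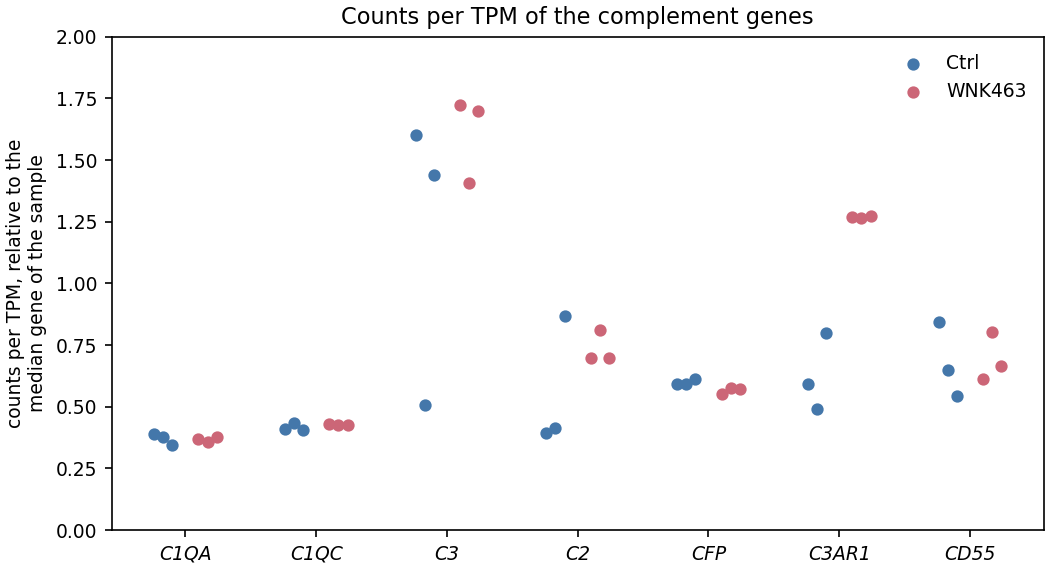
Counts per TPM relative to the median gene of the same library (linear axis), with 1 point per library for the 7 complement genes that had counts in every library. *C3* in Ctrl 2 (0.507) lies apart from the other *C3* values of 1.41 to 1.72. *C3AR1* is lower in Ctrl (0.491 to 0.799) than with WNK463 (1.26 to 1.27). *C2* varies as well (0.395 to 0.869 in Ctrl, 0.698 to 0.810 with WNK463), as does *CD55* (0.544 to 0.843 in Ctrl, 0.613 to 0.802 with WNK463). *C1QA*, *C1QC* and *CFP* vary little.

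*C2* (ENSG00000166278, chromosome 6 from 31897785 to 31945672, plus strand), the serine protease of the classical and lectin C3 convertase, had 5, 3 and 8 counts in Ctrl and 28, 18 and 10 counts with WNK463. The levels in CPM were 0.304, 0.206 and 0.488 against 1.69, 1.05 and 0.638. The groups did not overlap, but the lowest WNK463 library lay near the highest Ctrl library. The mean was 0.333 ± 0.143 CPM in Ctrl and 1.12 ± 0.530 CPM with WNK463 (SD, n = 3 each), with a log2 fold change of 1.72 (standard error 0.49). *C2* overlaps *ZBTB12*, on the opposite strand, and the first bases of *CFB*, and the strand setting of the counting is not given in the sources used here. *ZBTB12* rose from 6.87 to 10.2 CPM (log2 fold change 0.58, adjusted p = 0.0017 from edgeR), and reads of the overlapping genes cannot be told apart here, while *CFB*, the alternative pathway protease, had 1 count in a single library.

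*CFP* (ENSG00000126759, chromosome X from 47623172 to 47630305, minus strand) encodes properdin, which stabilises the alternative pathway convertase. It was the most abundant of the 10 genes, with 94.97 ± 9.34 TPM in Ctrl and 137 ± 11.6 TPM with WNK463 (SD, n = 3 each). Its counts were 1485, 1135 and 1248 in Ctrl and 1739, 1584 and 1566 with WNK463, or 90.4, 77.8 and 76.1 CPM against 104.96, 92.0 and 99.9 CPM. The groups were close and just failed to overlap. The log2 fold change was 0.28 (standard error 0.07), or 1.21-fold. It was 0.43 with scaling by total counts and 0.53 as a ratio of mean TPM.

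*C3AR1* (ENSG00000171860, chromosome 12 from 8058302 to 8066471, minus strand), the receptor of C3a, had 5, 4 and 9 counts in Ctrl and 59, 67 and 57 counts with WNK463. The levels were 0.304, 0.274 and 0.549 CPM in Ctrl and 3.56, 3.89 and 3.64 CPM with WNK463. The WNK463 libraries were within a narrow range and far above Ctrl. The mean was 0.376 ± 0.151 CPM in Ctrl and 3.70 ± 0.174 CPM with WNK463 (SD, n = 3 each), for a log2 fold change of 3.26 (standard error 0.33), while the ratio of mean TPM gave 2.48. The counts per TPM of *C3AR1*, which has annotated transcripts of 567 and 2088 bases, were 0.592, 0.491 and 0.799 in Ctrl and 1.27, 1.26 and 1.27 with WNK463, relative to the median gene.

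*C5AR1* (ENSG00000197405, chromosome 19 from 47290023 to 47322066, plus strand), the receptor of C5a, had 1 count in each Ctrl library and 3, 0 and 2 counts with WNK463. All 6 libraries were at or under 3 counts, so no fold is given, and no difference was detectable at this depth. The related receptor gene *C5AR2*, 10081 bp away, had 7, 5 and 1 counts in Ctrl and 2, 3 and 2 counts with WNK463 and was below the count filter.

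*SERPING1* (ENSG00000149131, chromosome 11 from 57597387 to 57614853, plus strand), which encodes the C1 inhibitor that inactivates C1r and C1s, had 0 counts in each Ctrl library and 2, 1 and 0 counts with WNK463. No fold is given here either.

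*CD55* (ENSG00000196352, chromosome 1 from 207321376 to 207386804, plus strand) encodes decay-accelerating factor, a membrane protein that speeds the decay of convertases. It had 119, 120 and 128 counts in Ctrl and 117, 127 and 113 counts with WNK463. In CPM the libraries ranged from 7.24 to 8.23 in Ctrl and from 7.06 to 7.38 with WNK463, and the groups overlapped. The mean was 7.76 ± 0.494 CPM in Ctrl and 7.22 ± 0.159 CPM with WNK463 (SD, n = 3 each), and the log2 fold change of -0.10 (standard error 0.14) was smaller than its error. With scaling by total counts it was 0.05.

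Set side by side in TPM, the order in Ctrl was *CFP* (94.97 ± 9.34), *CD55* (8.31 ± 2.16), *C3* (6.29 ± 4.23), *C1QA* (1.86 ± 1.17), *C2* (0.425 ± 0.0942), *C3AR1* (0.410 ± 0.0660), *C1QC* (0.252 ± 0.174), *C5AR1* (0.0507 ± 0.00379), *C1QB* (0.0420 ± 0.0727) and *SERPING1*, which was at 0 (SD, n = 3 each). In that order *CD55* and *C3* did not differ beyond their spread, and neither did *C2*, *C3AR1* and *C1QC*. *C5AR1*, *C1QB* and *SERPING1* had at most 1 count in each Ctrl library, so their order is not resolved. With WNK463 it was *CFP* (137 ± 11.6), *C3* (28.5 ± 2.75), *C1QA* (28.0 ± 3.40), *CD55* (8.25 ± 0.909), *C1QC* (6.65 ± 0.351), *C3AR1* (2.29 ± 0.121), *C1QB* (2.18 ± 0.835), *C2* (1.21 ± 0.612), *SERPING1* (0.143 ± 0.153) and *C5AR1* (0.0937 ± 0.0847). Here *C3* and *C1QA* were within their spread of each other, as were *C3AR1* and *C1QB*, *C1QB* and *C2*, and *SERPING1* and *C5AR1*. *C3* and *C1QA* both stood below *CD55* in mean TPM in Ctrl, but *C3* was above it in Ctrl 2 (11.176 against 8.921). With WNK463 both were above *CD55* in every library. The summed level of the 10 genes was 94.3 to 108.64 CPM in Ctrl and 179.12 to 196.46 CPM with WNK463.

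Promoter windows of 250 bases before to 50 bases after an annotated start were taken from RefSeq on GRCh38.p14, which gave 10 windows for 7 of the genes. They were searched on both strands for GGAAGT, the core bound by ETS factors such as PU.1, for TTCNNNGAA, bound by STAT factors, for GAAANNGAA, bound by interferon regulatory factors, for TGANTCA, bound by AP-1, for TTNCNNAA, bound by C/EBP factors, and for CACGTG, an E-box. Windows of *C1QA*, *C1QB* and *CFP* held GGAAGT, which 22.8% of all 35116 windows held. TTCNNNGAA was found for *C1QA* (7.66% of all windows), GAAANNGAA for *CFP* (8.11%), TGANTCA for *C3AR1* (7.71%) and CACGTG for *C2* (7.26%). TTNCNNAA, in 36.8% of all windows, was found for *C1QA*, *C1QB* and *C3AR1*, and the windows of *CD55* and *C5AR1* held none of the 6. A match describes letters only, and no factor binding was measured. The stretches outside exons are printed, 5′ to 3′ on the strand of the gene, for the leading C1q chain, the C3a receptor and properdin, with matches other than TTNCNNAA in capitals. They are C1QA at chr1:22636213-22636462 (plus strand, TTCNNNGAA), C3AR1 at chr12:8066472-8066609 (minus strand, TGANTCA) and CFP at chrX:47630306-47630555 (minus strand, GGAAGT as its reverse complement ACTTCC and, overlapping it, the reverse complement of GAAANNGAA).
C1QA: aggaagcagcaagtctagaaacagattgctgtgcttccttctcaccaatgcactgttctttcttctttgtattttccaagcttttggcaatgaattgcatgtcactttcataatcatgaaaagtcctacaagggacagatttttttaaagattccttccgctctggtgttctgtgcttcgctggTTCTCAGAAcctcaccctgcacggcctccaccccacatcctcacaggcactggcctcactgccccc
C3AR1: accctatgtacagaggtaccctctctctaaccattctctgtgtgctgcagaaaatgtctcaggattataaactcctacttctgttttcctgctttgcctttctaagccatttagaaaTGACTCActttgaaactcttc
CFP: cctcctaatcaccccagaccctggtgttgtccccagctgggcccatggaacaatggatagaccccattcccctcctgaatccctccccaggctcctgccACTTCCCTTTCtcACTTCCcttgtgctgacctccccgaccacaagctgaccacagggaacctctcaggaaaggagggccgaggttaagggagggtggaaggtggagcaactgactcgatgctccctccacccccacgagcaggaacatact

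The genes next to these members were given for context. *GPR108*, which overlaps the start of *C3* on the same strand, rose from 93.6 to 134 CPM (log2 fold change 0.51, adjusted p = 3.2e-07 from edgeR), and the part that shared reads have in this was not tested. *TNFSF14*, on the other side of *C3*, did not pass the test (-0.01, adjusted p = 0.95 from edgeR). *FOXJ2* and *NECAP1*, beside *C3AR1*, had log2 fold changes of -0.02 and 0.10, and *TIMP1* and *ELK1*, beside *CFP*, had 0.03 and 0.14, none of which passed the test. *EHMT2*, 98 bp from *C2*, stood at 0.03. *CD55* lies in a cluster of complement regulator genes with *CR2*, *CR1*, *CR1L*, *C4BPA* and *C4BPB*, all of which were below the count filter.

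The rest of the pathway was read from a list of 52 other complement genes, made by function and not by how they moved. Of these, 23 had 0 counts in all 6 libraries and 16 passed the count filter. With edgeR, 11 of the 16 rose and 3 fell at an adjusted p below 0.05 (35.5% and 35.3% of all tested genes), 5 were called higher (9.62% of all tested genes) and 0 were called lower (5.55%). The median log2 fold change of the 16 was 0.49. Genes scarce in Ctrl could enter this set only through their WNK463 counts, so nothing is read from this count.

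**Figure D4:**
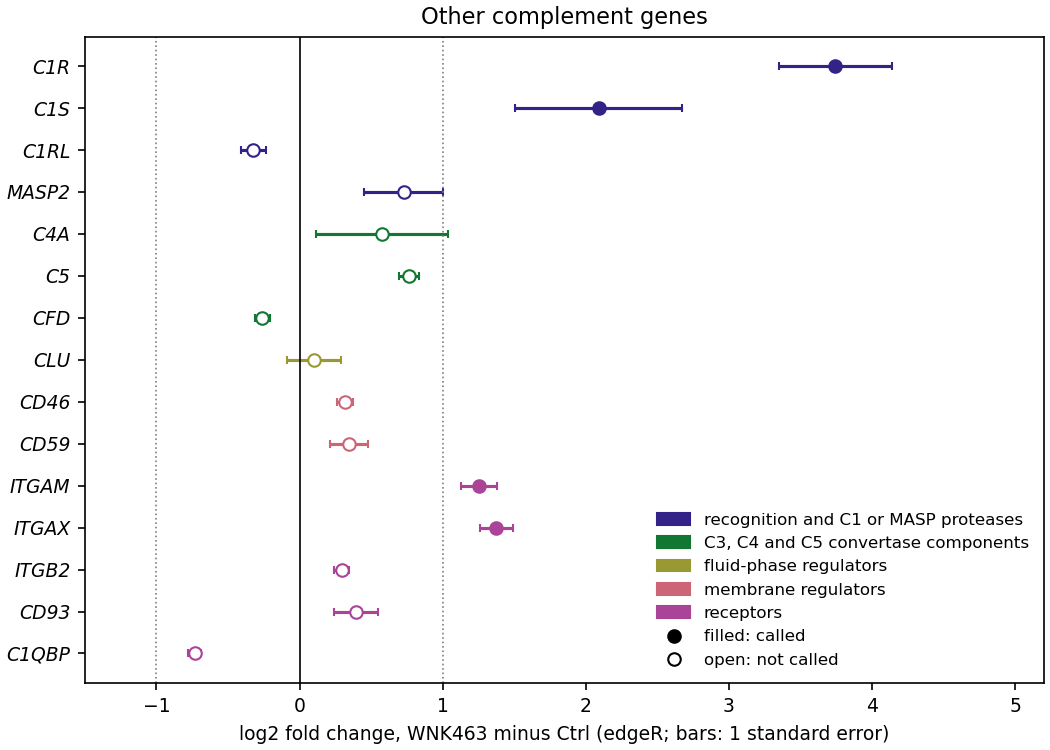
Log2 fold change of 15 of the other complement genes that passed the count filter, WNK463 minus Ctrl, with bars of 1 standard error, coloured by function, with filled points for the 4 of them called higher and open points for the rest. *C1R* (3.74) lies farthest to the right and *C1QBP* (-0.73) farthest to the left, and the dotted lines mark log2 fold changes of -1 and 1.

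The proteases that join C1q in the C1 complex were among the called genes. *C1R*, the protease that activates C1s, had 1, 7 and 5 counts in Ctrl and 59, 67 and 61 counts with WNK463. Its level rose from 0.282 ± 0.210 to 3.78 ± 0.191 CPM (SD, n = 3 each; log2 fold change 3.74, standard error 0.39, adjusted p = 1.3e-07 from edgeR). *C1S*, which cleaves C4 and C2, had 8, 0 and 5 counts in Ctrl and 16, 31 and 12 counts with WNK463. It rose with a log2 fold change of 2.09 (standard error 0.58, adjusted p = 0.0038 from edgeR), which became 2.82 without Ctrl 1, and the adjusted p was 0.064 from limma on log2(TPM + 0.1). Both genes passed the count filter only through their WNK463 counts, and with no filter the adjusted p from edgeR was 5e-12 for *C1R* and 0.0022 for *C1S*. All 5 genes of the C1 complex were more abundant in each WNK463 library than in any Ctrl library, as were 37.1% of all tested genes, while *SERPING1*, their inhibitor, stayed at 2 counts or fewer. The C1q chain genes were chosen with these values known, and *C1R* and *C1S* passed the filter as just described. Nothing is therefore read from this agreement of the 5 genes. *C1RL*, a C1r-like protease gene, fell by 0.32 on the log2 scale (23.0 ± 0.183 to 18.4 ± 1.32 CPM, SD, n = 3 each, adjusted p = 0.0030 from edgeR), and with scaling by total counts the adjusted p was 0.082. For *C1RL*, limma on log2(TPM + 1) gave -0.17 (adjusted p = 0.13). *MASP2*, the protease of the lectin pathway, rose by 0.73 (adjusted p = 0.027 from edgeR) with overlapping groups, and the adjusted p was 0.11 without Ctrl 3, 0.13 without WNK463 1 and 0.10 without WNK463 2. Of the lectin pathway's recognition genes none passed the filter, and *FCN1* had 2, 0 and 0 counts in Ctrl and 8, 2 and 8 with WNK463.

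Among the convertase components, *C5*, the source of C5a, rose from 29.97 ± 2.08 to 50.9 ± 1.96 CPM (SD, n = 3 each; log2 fold change 0.77, standard error 0.07, adjusted p = 2.8e-08 from edgeR). *CFD*, factor D, which cleaves factor B, was abundant and fell from 166 ± 8.91 to 138 ± 6.74 CPM (SD, n = 3 each; log2 fold change -0.26, adjusted p = 3.8e-04 from edgeR), with an adjusted p of 0.075 under scaling by total counts. For *CFD*, limma on log2(TPM + 1) gave a log2 fold change of -0.08 (adjusted p = 0.29). *C4A* and *C4B* are near-identical copies between which reads can be split, so their counts were also summed. *C4A* had 19, 20 and 15 counts in Ctrl and 7, 32 and 45 with WNK463 and did not pass the test (adjusted p = 0.27 from edgeR, 0.017 without WNK463 1). The sum of both was 23, 20 and 15 counts in Ctrl and 27, 42 and 49 counts with WNK463, or 1.23 ± 0.272 and 2.40 ± 0.749 CPM (SD, n = 3 each). Of the 6 terminal pathway genes, which form the lytic pore, 5 were at 0 counts throughout, and *C8G* had 0 counts in Ctrl and 8, 6 and 5 with WNK463, at least 2.01-fold higher with 3 counts in each Ctrl library.

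Of the fluid-phase regulators, *CLU*, clusterin, passed the filter and did not pass the test (4.09 ± 0.578 and 4.40 ± 0.301 CPM, SD, n = 3 each, log2 fold change 0.10, adjusted p = 0.65 from edgeR). It was -0.02 without Ctrl 2 and 1.23 from limma on log2(TPM + 1) (adjusted p = 0.021). The other membrane regulators beside *CD55* that passed the filter both rose by less than the call limit. *CD46*, a cofactor for cleavage of C3b and C4b, rose from 115 ± 4.35 to 143 ± 7.11 CPM (SD, n = 3 each; log2 fold change 0.32, adjusted p = 4.3e-05 from edgeR). *CD59*, which blocks the lytic pore, rose by 0.35 (adjusted p = 0.026 from edgeR), with an adjusted p of 0.15 without Ctrl 2, 0.14 without WNK463 2 and 0.053 from DESeq2. For *CD59*, limma on log2(TPM + 1) gave 0.14 (adjusted p = 0.32).

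Of the receptors for C3 fragments, the integrin chains passed the filter and rose. *ITGAM* and *ITGAX*, the alpha chains of complement receptors CR3 and CR4, rose from 5.67 ± 0.318 to 13.5 ± 1.04 CPM and from 6.98 ± 0.606 to 18.1 ± 1.21 CPM (SD, n = 3 each), with log2 fold changes of 1.25 and 1.38 (adjusted p = 7.9e-08 and 6.1e-09 from edgeR). *ITGB2*, their shared beta chain, was already at 303 ± 20.5 CPM and rose to 372 ± 15.5 CPM (SD, n = 3 each; log2 fold change 0.30, adjusted p = 7.4e-05 from edgeR). *CR1* and *CR2* had at most 1 count in any library, and *VSIG4*, a macrophage receptor for C3b, had 3, 0 and 2 counts in Ctrl and 7, 7 and 11 with WNK463, at least 2.68-fold higher with 3 counts in each Ctrl library. *CD93* rose by 0.39 (adjusted p = 0.031 from edgeR), with an adjusted p of 0.064 without Ctrl 1, 0.10 without Ctrl 3 and 0.14 without WNK463 3. *C1QBP*, a mostly mitochondrial protein that can bind the globular heads of C1q, went the other way, from 358 ± 7.91 to 215 ± 9.74 CPM (SD, n = 3 each; log2 fold change -0.73, standard error 0.05, adjusted p = 2.3e-10 from edgeR).

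Genes outside complement whose proteins carry a C1q domain were listed for comparison with the C1q chains. Of 23 such genes 6 passed the filter, 4 rose (35.5% of all tested genes), 0 fell (35.3%) and 1 was called higher (9.62%). *C1QTNF3*, which rose, and *CBLN3*, which did not pass the test, met the filter only through their WNK463 counts. Nothing is therefore read from these counts of genes. *C1QTNF6*, which encodes a secreted protein of the C1q and TNF related family, rose from 2.94 ± 0.459 to 15.1 ± 2.16 CPM (SD, n = 3 each; log2 fold change 2.35, standard error 0.16, adjusted p = 4.1e-10 from edgeR). *EMILIN1* and *EMILIN2*, extracellular matrix glycoproteins, rose by 0.70 and 0.49 on the log2 scale. *C1QTNF3* rose by 1.00 with overlapping groups, and the number called was 2 without Ctrl 1, Ctrl 3 or WNK463 3 and 3 without WNK463 1.

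Macrophages produce C1q, so 13 macrophage markers were read in the same libraries. Their summed level was 48.8 to 49.4 CPM in Ctrl and 63.0 to 68.6 CPM with WNK463, most of it from *MS4A4A* (37.1 and 45.2 CPM). Of the 13, 6 passed the filter, 5 rose (35.5% of all tested genes) and 2 were called higher (9.62%). These were *FOLR2* (0.820 to 2.32 CPM) and *APOE*, which passed the filter only through its WNK463 counts and had 0, 2 and 0 counts in Ctrl and 16, 18 and 12 with WNK463, at least 4.86-fold higher with 3 counts in each Ctrl library. *SIGLEC1* rose from 3.68 to 7.29 CPM, *TREM2* from 5.47 to 8.95 CPM and *MS4A4A* from 37.1 to 45.2 CPM. *MARCO*, a scavenger receptor gene, had 28, 37 and 17 counts in Ctrl and 20, 21 and 30 with WNK463 and did not pass the test (log2 fold change -0.27, adjusted p = 0.49 from edgeR). The other macrophage markers were below the count filter. *GPNMB* had 0 counts in Ctrl and 5, 2 and 3 with WNK463, which is around the limit of 3 counts, so no fold is given. *SELENOP* had 1, 1 and 0 counts in Ctrl and 8, 2 and 0 with WNK463. *CD163* had 1 count and *MRC1* 2 counts over all 6 libraries, *MSR1* had 1 count in each Ctrl library and 0 with WNK463, and *LYVE1* and *TIMD4* were at 0. Of 16 markers of other lineages, 3 passed the filter. *PECAM1* (0.80) and *NKG7* (0.46) rose (35.5% of all tested genes) and *KRT18* (-0.68) fell (35.3%) on the log2 scale. The summed level of the 16 was 113.6 to 128.9 CPM in Ctrl and 185.5 to 200.1 CPM with WNK463. Most of it came from *PECAM1* (96.8 and 169 CPM), so the sum mainly follows this 1 gene. *CDH5*, like *PECAM1* listed as an endothelial marker, had 0, 0 and 4 counts in Ctrl and 2, 2 and 2 with WNK463. The hepatocyte marker *ALB* had 0 counts in Ctrl and 2, 1 and 1 counts with WNK463. Among the AML and myelomonocytic markers, *CSF1R*, the receptor of the macrophage growth factor, rose from 58.6 to 114 CPM, and *SPI1*, which encodes PU.1, stood at 218 CPM in both groups. Of these 14 markers 12 passed the filter, 6 rose (35.5% of all tested genes) and 5 fell (35.3%). *PTPRC*, the pan-leukocyte antigen CD45 gene, was called higher (91.5 to 210 CPM), as were 9.62% of all tested genes. The granule genes *MPO*, *ELANE* and *LYZ* were called lower, as were 5.55% of all tested genes. The part that these shifts have in the levels of the complement genes was not tested.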

How the data were processed

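RNA-seq was analysed for 3 Ctrl and 3 WNK463 libraries of MV4-11 cells, made from bead-captured mRNA and read on an Illumina NovaSeq X Plus. The authors deposited, per gene and sample, whole-number counts without normalization, taken here to be rounded estimated counts as RSEM gives, which no source states, and TPM values, which sum to the same total in each sample. The submitters' processing notes name fastp, Bowtie2, HISAT2, StringTie, RSEM, DESeq2 and edgeR on GRCh38, with no version or role, and the strand setting is not given in the sources used here. The authors' group means, fold changes and p-values were not used.

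Samples were grouped by their labels. Counts were tested with edgeR 4.0.16 in R 4.3.3, with TMM factors (0.944 to 0.952 in Ctrl, 1.05 to 1.06 with WNK463), the default filter on low counts (11973 of 20348 genes) and the quasi-likelihood test, with Benjamini-Hochberg adjustment over all tested genes. Genes rose or fell at an adjusted p below 0.05, and were called if the log2 fold change was also 1 or more in size. Standard errors were obtained from the log2 fold change and the F statistic. Where all Ctrl counts were 3 or fewer, a bound against 3 counts per Ctrl library was computed. Gene positions are from GENCODE 29 and promoter windows from RefSeq.

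The 10 genes and all lists were chosen with earlier results of these data known. The text names the 10 genes, every called gene of a list, tested genes of small subgroups, chromosomal neighbours, and the genes most like summed C1q or *C3*; other named list genes were picked after their values were seen. A called gene of the complement list, included in the counts, is not reported here. Replicates of a group differed by more than sampling noise (chi-square per degree of freedom 2.68 to 7.40). Alternatives were DESeq2 1.42.0, total-count scaling, other filters and thresholds, limma 3.58.1 on TPM (mean of at least 0.5 TPM in 1 group, or no filter), a replicate block and each library left out. The tests were checked on simulated counts, with changes given only to well-counted genes. The check therefore does not cover genes with few counts, and limma on TPM was not part of it.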

Additional observations from a re-analysis of the deposited data

How the results depend on the processing

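The number of other complement genes called higher, 5, was 9 with no filter on low counts, where *FCN1*, *C4B*, *C8G* and *VSIG4* were added, 2 with glmTreat, 2 with 10 or more counts required in every sample, and 11 at an adjusted p alone, which also gave 3 lower. It was 5 with DESeq2, with total-count scaling and with the replicate block, 7 with limma on log2(TPM + 0.1), and 5 to 6 with each library left out. The C1q-domain genes called higher, 1, were 2 with DESeq2, 3 with total-count scaling, 2 with limma on log2(TPM + 0.1), 2 with the replicate block, 4 at an adjusted p alone, and 1 to 3 with a library left out. The macrophage markers called higher, 2, were 1 with glmTreat, 1 with 10 or more counts in every sample and 5 at an adjusted p alone. They were 3 with total-count scaling, with no filter on low counts and with limma on log2(TPM + 0.1), and 2 to 3 with a library left out. The other lineage markers went from 0 higher and 0 lower to 2 and 1 at an adjusted p alone. Over all genes, 1152 higher and 665 lower became 610 and 345 with glmTreat, 740 higher with 10 or more counts in every sample, and 4251 and 4222 at an adjusted p alone, while limma gave 268 lower on log2(TPM + 1), with and without the filter, and 424 lower on log2(TPM + 0.1). Total-count scaling gave 1451 and 458, so that the share of higher calls was 76.0% in place of 63.4%, and it raised the median log2 fold change by 0.15. With each library left out, 1154 to 1236 genes were higher and 663 to 703 lower. The replicate numbers did not pair the samples (correlation of deviations 0.013, 0.016 and -0.056), and the replicate block gave 1155 higher and 663 lower. Of 220 combinations of another complement gene and an alternative, 192 kept their side of the threshold, 23 lost it, 4 gained it and 1 turned direction, which was *CLU*, at -0.018 without Ctrl 2 (-0.018 to 0.16 over the libraries left out). The causes were not tested.

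Among the 10 genes, the log2 fold change ranged over the alternatives from 3.27 to 4.11 for *C1QA*, 2.62 to 5.19 for *C1QC*, 2.16 to 2.96 for *C3*, 0.60 to 2.09 for *C2*, 0.22 to 0.53 for *CFP*, 1.22 to 3.63 for *C3AR1* and -0.16 to 0.05 for *CD55*. The lowest values of *C1QC*, *C3*, *C2* and *C3AR1* came from log2(TPM + 1). On log2(TPM + 0.1) they were 4.38, 2.35, 1.23 and 2.23. Depth limits *C1QB*, *C5AR1* and *SERPING1*, at or under 3 counts in Ctrl, and the bounds against 3 counts do not include the spread between libraries.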

Other observations

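The genes whose pattern over the 6 libraries was most like that of the summed C1q chains, by Pearson correlation of log2(CPM + 0.5), were *TNFRSF10D*, *TMC4*, *ZNF366*, *MB21D2* and *CD244*, with r of 0.9994, 0.99924, 0.99923, 0.99896 and 0.9989. An r over 0.95 was found for 1841 of the tested genes outside the complement genes described here, and the points share their libraries and the split into 2 groups. The sizes differed widely. *ZNF366*, which encodes a zinc finger protein known from dendritic cells, went from 2.85 ± 0.898 to 56.9 ± 0.588 CPM (SD, n = 3 each), or 4.30 in log2 fold change, and *TNFRSF10D*, a decoy receptor for TRAIL, from 32.3 ± 1.41 to 43.0 ± 0.249 CPM (SD, n = 3 each), or 0.41 in log2 fold change.

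For *C3* the most similar genes, again leaving out the complement genes described here, were *GGT5*, *CHI3L1*, *TRIB1*, *BMF* and *SERPINF1*, with r of 0.99995, 0.9997, 0.99958, 0.99949 and 0.99947 over the 6 libraries. Among the same tested genes 2110 had an r over 0.95. *BMF*, a BH3-only member of the BCL2 family, went from 71.3 ± 1.59 to 236 ± 7.05 CPM, and *SERPINF1*, which encodes a secreted serpin without protease inhibition, from 61.7 ± 1.93 to 189 ± 8.39 CPM (SD, n = 3 each), with log2 fold changes of 1.73 and 1.62.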
